A study of Mus musculus with 3 samples.

Results

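The genes of calcium entry, calcium release and calcium pumping were described in RNA sequencing libraries of mixed glomerular cells. Members were the protein-coding genes whose mouse symbols name voltage-gated calcium channel subunits (Cacn), transient receptor potential channels of the A, C, M and V families (Trpa, Trpc, Trpm, Trpv), the polycystins Pkd1 and Pkd2, the inositol trisphosphate (IP3) and ryanodine receptors (Itpr, Ryr), the calcium pumps (Atp2a, Atp2b, Atp2c), the store-operated channel genes Orai and Stim, and the Piezo channels. Of 21226 protein-coding genes in a table of 39304 rows, 73 met this rule. The annotation holds 74 such genes, and Trpc2 was not analysed here. A pair of members matched by name without being channels: Trpc4ap, which encodes a TRPC4-associated protein, and Trpc5os, annotated on the opposite strand of Trpc5.

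The libraries form a single group. Glomeruli, which filter blood in the kidney, were taken from 1 male C57BL/6 mouse, wild type and 8 weeks old, and their cells were separated and copied to cDNA singly on a Fluidigm C1 microfluidic chip, with cell types assigned by qPCR. The pool held cDNA of 15 mesangial cells (contractile support cells found between the capillaries) and 15 endothelial cells (the capillary lining), and 3 aliquots of it each gave a library. Levels are in FPKM, fragments per kilobase of gene per 1000000 reads, and each SD is over the 3 aliquots (n = 3), so it reflects library preparation and sequencing and gives no check across cells or mice. Because the cell types were mixed, which of them made a transcript cannot be told apart, nor can fewer cells and less RNA per cell.

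Calcium acts as a switch in both cell types. In contractile mesangial cells, hormones that activate phospholipase C release calcium from the endoplasmic reticulum through IP3 receptors, the emptied store is sensed by STIM proteins that open ORAI channels, and TRPC channels and voltage-gated channels add entry from outside. Pumps of the SERCA, PMCA and SPCA types then return calcium to the endoplasmic reticulum, the outside and the Golgi. Endothelial cells use the same stores and also sense blood flow with mechanically gated channels.

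The cell labels were checked against marker genes. All 11 mesangial and all 11 endothelial markers reached 1 FPKM in every aliquot, the limit used for detection here, with summed levels of 9058 to 9489 FPKM and 2849 to 2909.8 FPKM over the aliquots. The qPCR had used Gata3 and Igfbp5 of the mesangial and Pecam1 and Tek of the endothelial markers to choose the cells. Genes listed as markers of other cells were detected too. Of 11 podocyte markers 8 reached the limit (summed 319 to 339 FPKM, with Nphs1 at 37.6 ± 2.37 FPKM). Of 8 smooth muscle and renin cell markers 7 did (summed 1599 to 1698 FPKM). Myl9 gave 1471 ± 44.4 FPKM of this sum, and Cnn1 was at 0. Which cells made these transcripts was not tested. No tubule, macrophage or erythroid marker had a read, and of 3 lymphocyte markers Lck alone did, with 3 reads in all. The library totals behind the values were 9141422, 10427635 and 10976563 reads in aliquots 1, 2 and 3.

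Detection was uneven across the machinery. Of the 73 members 21 (28.8%) were detected, against 36.5% of all protein-coding genes, and 40 (54.8%) were listed at 0 in every aliquot, against 54.5%. The other 12 had reads but fell below the limit in at least 1 aliquot. Among genes above 0 the members had a median of 3.34 FPKM (33 genes) and all protein-coding genes 12.9 FPKM (9660 genes), while detected members had a median of 21.35 FPKM and detected protein-coding genes 20.97 FPKM. A mean of at least 10 FPKM was reached by 12 members (16.4%), against 24.8% of protein-coding genes, and 100 FPKM by 3 members (4.11%), against 5.34%. These shares are descriptions of 1 pool and were not tested. The members together took 0.302%, 0.305% and 0.306% of the reads in aliquots 1, 2 and 3.

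**Figure D1:**
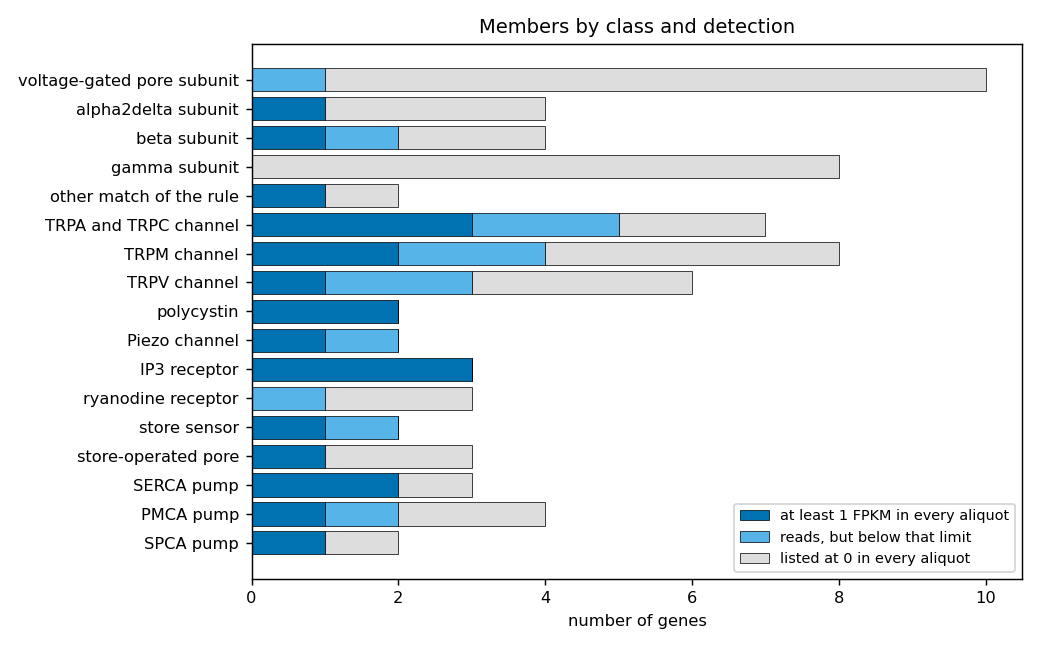
Number of members in each class (x axis, genes; classes down the page), split into those at or above 1 FPKM in every aliquot, those with reads below that limit, and those listed at 0. All 3 IP3 receptors and both polycystins were detected, against 0 of 10 voltage-gated pore subunits, 0 of 8 gamma subunits and 0 of 3 ryanodine receptors. Over all protein-coding genes 36.5% were detected, and classes of 2 or 3 genes are too small to set against that share.

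Calcium pumps included the most abundant member. Atp2c1, the Golgi calcium and manganese pump (SPCA), had the highest level of all members with 237, 228 and 244 FPKM in aliquots 1, 2 and 3, rank 424 among protein-coding genes. It lies on chromosome 9, 105403539 to 105527319, minus strand (GRCm38; whole gene, with reads counted over exons). Its relative Atp2c2, known from secretory epithelia, was listed at 0 in each aliquot. The annotation gives 18.9% of the exon bases of Atp2c1 also to Aste1 on the opposite strand, and Aste1 was listed at 0. Whether strand was used in counting is not given in the sources used here, so reads there cannot be assigned.

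The endoplasmic reticulum pumps were represented by a housekeeping gene and a more restricted one. Atp2a2 (chromosome 5, 122453513 to 122502225, minus strand), the SERCA gene used by most tissues, had 62.3, 62.8 and 60.2 FPKM. Atp2a3 (chromosome 11, 72961169 to 72993044, plus strand), the SERCA gene known from blood cells, endothelium and some epithelia, had 29.7, 28.0 and 29.4 FPKM. The values did not overlap, and the log2 ratio of Atp2a2 over Atp2a3 was 1.09 ± 0.07, a 2.13-fold higher level of Atp2a2. Atp2a1, the fast skeletal muscle SERCA gene, was listed at 0.

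At the plasma membrane Atp2b1 (chromosome 10, 98914406 to 99026143, plus strand), the widely used PMCA gene, had 60.1, 58.2 and 59.6 FPKM. Atp2b4, the other PMCA gene common outside the nervous system, stood at the detection limit with 0.996, 0.973 and 1.11 FPKM, from 152 reads in all. Atp2b2 and Atp2b3, both best known from neurons and sensory cells, were listed at 0. The level of Atp2a2 was above that of Atp2b1 in every aliquot, but by a log2 ratio of only 0.06 ± 0.05. This ratio depended on gene length, and was 0.59 with each length set to the longest annotated transcript. Summed over their members, SPCA, SERCA and PMCA genes had 236 ± 8.04, 90.8 ± 1.18 and 60.3 ± 0.995 FPKM, which were 24.8%, 9.54% and 6.34% of the FPKM of the whole set of members. With lengths set to the longest annotated transcript, an alternative for these sums chosen after seeing the data, they were 69.8 ± 2.38, 66.3 ± 0.856 and 30.1 ± 0.495 FPKM, so the gap between SPCA and SERCA genes nearly closed. The classes held 0.0394%, 0.0353% and 0.0216% of all reads, against 0.0558% for Piezo and 0.0470% for TRPM genes.

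**Figure D2:**
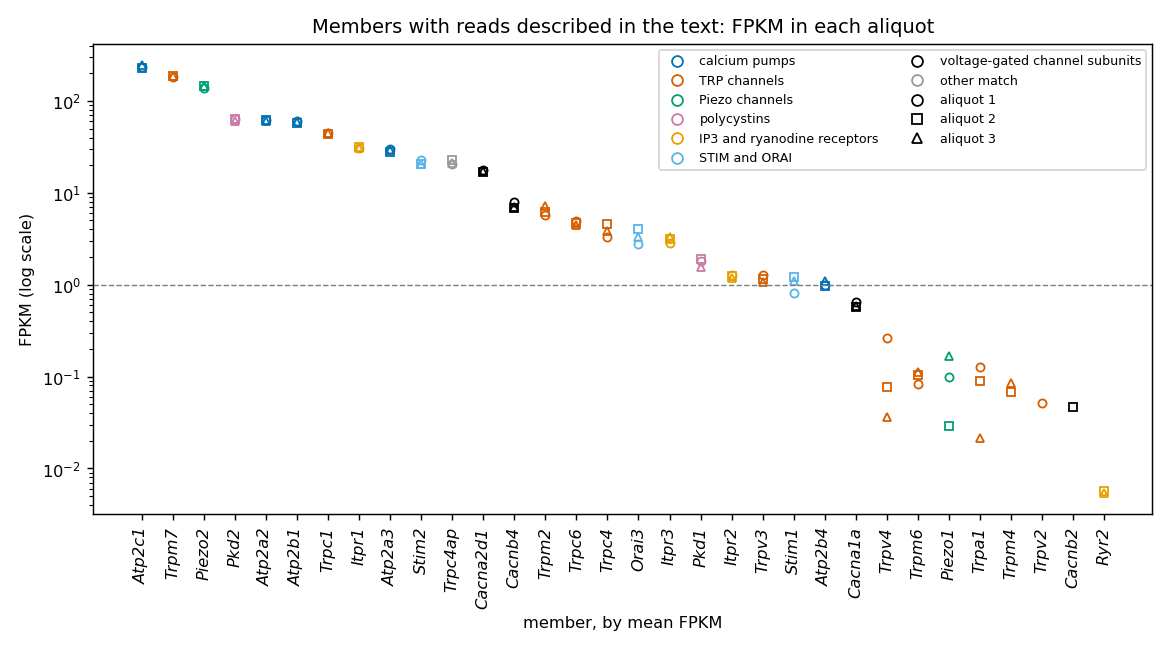
FPKM in the 3 aliquots of the members with reads that the text describes (y axis, log scale; zeros are not drawn), ordered by mean and coloured by class, with the dashed line at 1 FPKM. The aliquots lie close together down to about the detection limit, and spread widely for genes such as Trpv4 (0.261, 0.0762 and 0.0362 FPKM), which had 9 reads in all.

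Store release channels were represented by IP3 receptors. Itpr1 (chromosome 6, 108213096 to 108551109, plus strand) had 30.8, 31.7 and 30.6 FPKM, Itpr3 had 2.81, 3.15 and 3.27 FPKM, and Itpr2 had 1.28, 1.23 and 1.17 FPKM. The 3 genes kept this order in every aliquot with no overlap. The level of Itpr1 was 10.1-fold higher than that of Itpr3 (log2 ratio 3.34 ± 0.12) and 25.4-fold higher than that of Itpr2 (log2 ratio 4.66 ± 0.07). Itpr2 over Itpr3 gave a log2 ratio of -1.33 ± 0.18. The ratios with Itpr2 depended on gene length: with each length set to the longest annotated transcript, log2 ratios were 6.33 for Itpr1 over Itpr2 and -3.00 for Itpr2 over Itpr3. Ryanodine receptors, the calcium release channels of muscle, had 2 reads between them: Ryr2, the cardiac form, had 1 read in each of aliquots 2 and 3 (0.00570 and 0.00542 FPKM), and Ryr1 and Ryr3 were listed at 0.

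Among the store-operated genes Stim2 and Orai3 were detected, and Stim1, Orai1 and Orai2 were not. Stim2, a store sensor that reacts to small falls in store calcium, had 22.7, 20.8 and 20.8 FPKM (chromosome 5, 53998499 to 54121057, plus strand). Stim1, the sensor that drives most store-operated entry in many cells, had 0.821, 1.20 and 1.09 FPKM from 115 reads, with aliquot 1 below the limit. Orai3 had 2.74, 3.99 and 3.29 FPKM from 168 reads (chromosome 7, 127769815 to 127775150, plus strand). Orai1, the pore of the classical store-operated current, and Orai2 were listed at 0 in each aliquot. A total of 3 reads over the aliquots would have been 0.0666 FPKM for Orai1 at its mean transcript length, which covers counting error only.

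A listed 0 does not show that a transcript was absent. Of the 40 members listed at 0, 15 share some exon bases with another annotated gene, as do 8 of the 21 detected members and 4 of the 12 between. No such share over all protein-coding genes was computed, so these counts describe the members only. The highest shares of exon bases were 21.9%, 18.9% and 24.6% in these groups. The last was Piezo1, which overlaps Ctu2 (6.32 ± 0.547 FPKM) on the opposite strand. The part of such overlaps in the listed values was not tested.

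Promoter sequences were examined as a feature the choice of members did not use. RefSeq promoters on GRCm38.p6, each from 250 bases before to 50 bases after an annotated start, were found for 58 of the 73 members (75 starts). Those of detected members held a median of 23.5 CG pairs (22 starts of 18 genes). The median was 9 for members with reads below the limit (11 starts of 8 genes) and also 9 for those listed at 0 (42 starts of 32 genes). Medians and shares are over starts, so a gene with several starts counts repeatedly. Among members with reads below the limit, Trpv2 gave 2, 2 and 7 CG pairs and Cacnb2 35 and 4. Atp2b4, Trpm6, Ryr2, Trpv4, Piezo1 and Stim1, with a single start each, gave 4, 9, 18, 30, 34 and 38. The median of 9 for this state therefore depends on counting starts, and no median per gene was computed. Over all protein-coding genes with a promoter in the table, the medians for the same states were 21, 19 and 6 CG pairs, and 7 over all 32851 promoters. The motif GGGCGG on either strand, a binding site of Sp factors, was found in 68.2% of the starts of detected members (15 of 22). It was found in 45.5% (5 of 11) with reads below the limit and 40.5% (17 of 42) listed at 0. The 5 starts below the limit were 1 each of Cacnb2, Piezo1, Ryr2, Stim1 and Trpv4, of 8 genes. The shares of starts in protein-coding genes of the same states were 63.8%, 62.0% and 33.4%, and 35.7% of all promoters held the motif. TATAAA on either strand was found in 9.09%, 18.2% and 7.14% of the members' starts by state, which were only 2, 2 and 3 starts. The shares were 7.22%, 7.01% and 16.5% for protein-coding genes and 13.6% for all promoters. All 75 starts of members held at least 1 CG, as did 94.6% of all promoters. These matches describe the letters in the window and say nothing of which start was used.

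The starts of members held from 1 to 63 CG pairs. Examples are 4 promoters with a single listed start each, chosen after their values were seen. They belong to a highly expressed CG-rich gene (Trpm7) and a gene listed at 0 with few CG pairs (Trpv6, an epithelial calcium channel). The others are the ORAI pair, in which the gene listed at 0 has the CG-rich promoter. Capitals mark CG pairs, which number 35, 1, 11 and 36 in this order, and each sequence is written 5′ to 3′ on the gene's strand.
Trpm7 (chr2:126876212-126876511, minus strand): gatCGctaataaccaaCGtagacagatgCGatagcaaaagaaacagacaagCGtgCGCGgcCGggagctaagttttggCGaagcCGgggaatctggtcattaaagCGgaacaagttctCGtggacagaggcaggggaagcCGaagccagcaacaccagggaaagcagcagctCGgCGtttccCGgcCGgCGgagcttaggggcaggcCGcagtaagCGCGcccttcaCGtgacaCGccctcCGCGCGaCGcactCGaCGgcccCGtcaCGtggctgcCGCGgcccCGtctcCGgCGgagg
Trpv6 (chr6:41636356-41636655, minus strand): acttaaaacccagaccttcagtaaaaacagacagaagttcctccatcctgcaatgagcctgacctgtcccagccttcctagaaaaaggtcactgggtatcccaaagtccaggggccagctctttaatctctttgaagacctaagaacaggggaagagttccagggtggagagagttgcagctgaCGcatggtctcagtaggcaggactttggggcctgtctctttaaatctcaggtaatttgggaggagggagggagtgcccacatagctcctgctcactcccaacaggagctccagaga
Orai3 (chr7:127769565-127769864, plus strand): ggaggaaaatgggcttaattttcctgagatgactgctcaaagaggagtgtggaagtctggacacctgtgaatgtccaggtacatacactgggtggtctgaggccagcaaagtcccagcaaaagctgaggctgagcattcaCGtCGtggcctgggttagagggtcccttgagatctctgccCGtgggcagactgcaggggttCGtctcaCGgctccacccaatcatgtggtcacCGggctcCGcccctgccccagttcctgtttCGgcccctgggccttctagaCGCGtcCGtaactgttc
Orai1 (chr5:123014824-123015123, plus strand): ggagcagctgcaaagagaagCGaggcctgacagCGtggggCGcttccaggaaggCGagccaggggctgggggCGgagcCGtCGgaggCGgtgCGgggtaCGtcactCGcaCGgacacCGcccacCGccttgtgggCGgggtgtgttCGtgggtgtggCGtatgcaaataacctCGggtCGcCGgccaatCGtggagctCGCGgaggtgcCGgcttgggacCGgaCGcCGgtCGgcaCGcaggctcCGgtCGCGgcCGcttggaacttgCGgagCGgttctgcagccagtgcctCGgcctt

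**Figure D3:**
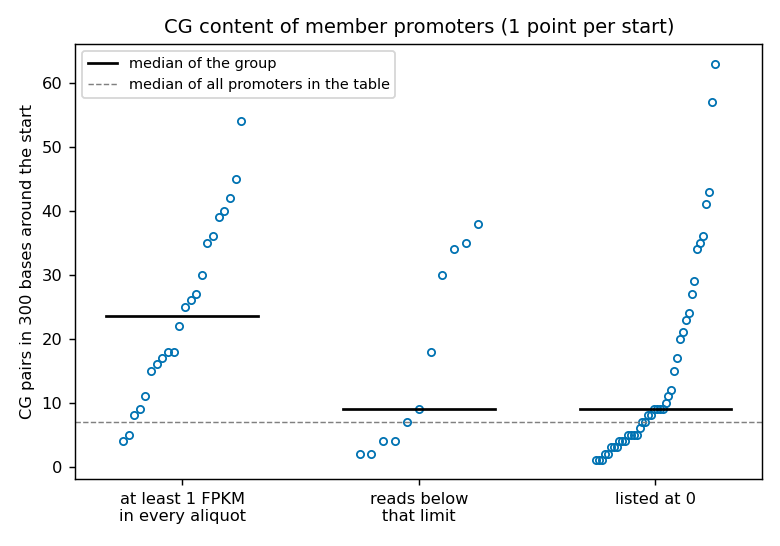
Number of CG pairs in the 300 bases around each listed start of a member (y axis), by detection state (x axis); lines are group medians and the dashed line is the median of all promoters in the table. Counted by start, detected members had a median of 23.5 against 9 for each of the other states, and the groups overlap widely. The 9 for reads below the limit depends on counting starts, since Trpv2 alone gives 2, 2 and 7. Over protein-coding genes of the same states the medians were 21, 19 and 6. Points and medians are per start, so genes with several starts count repeatedly.

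Channels that open to membrane stretch and to intracellular signals included the next most abundant members. Trpm7 (chromosome 2, 126791565 to 126876230, minus strand), a magnesium and calcium channel joined to a kinase domain, had 184, 189 and 189 FPKM and 13674 reads in all. Piezo2 (chromosome 18, 63010213 to 63387183, minus strand), a mechanically gated channel known for touch sensing, had 138, 146 and 147 FPKM from 17058 reads, the most of any member. Piezo1, the mechanically gated channel known in endothelium for sensing flow, had 0.0995, 0.0291 and 0.166 FPKM from 10 reads. The 3 aliquots of Piezo2 all lay far above those of Piezo1, in a pool in which all 11 endothelial markers were detected.

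Both polycystins were detected, at different levels. Pkd2, a TRP-like cation channel of cilia and endoplasmic reticulum (chromosome 5, 104459450 to 104505819, plus strand), had 62.9, 63.3 and 61.0 FPKM. Pkd1, its large receptor-like partner (chromosome 17, 24549834 to 24596508, plus strand), had 1.81, 1.89 and 1.56 FPKM. The level of Pkd2 was 35.7-fold higher (log2 ratio 5.16 ± 0.12), the widest deposited ratio of the 8 pairs with both members detected. With lengths set to the longest transcript Pkd2 over Pkd1 gave a log2 ratio of 4.85, below the 6.33 of Itpr1 over Itpr2. Mutations in either gene cause polycystic kidney disease in humans. Pkd1 shares 3.98% of its exon bases with Tsc2 on the opposite strand (3.72 ± 0.393 FPKM).

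Of the receptor-operated TRPC channels 3 were detected. Trpc1 (chromosome 9, 95705082 to 95750375, minus strand), a subunit that assembles with other TRPC proteins, led with 44.7, 44.2 and 45.3 FPKM. Trpc6, a channel opened by diacylglycerol whose human mutations cause a podocyte disease, had 4.98, 4.69 and 4.45 FPKM. Trpc4 had 3.31, 4.53 and 3.88 FPKM. The level of Trpc1 was 9.51-fold higher than that of Trpc6 (log2 ratio 3.25 ± 0.09). With lengths set to the longest transcript the log2 ratio was 2.76. Trpc4 lay below Trpc6 in each aliquot, but the log2 ratio of -0.28 ± 0.28 was no larger than its spread, and their FPKM values overlapped. Trpc5 and Trpc7 were listed at 0. Trpc6 and Trpc5 are known from podocytes, whose markers ranged from 0.237 ± 0.111 FPKM for Lmx1b to 101 ± 3.18 FPKM for Wt1 in this pool, with none of 11 at 0. Their part in the Trpc6 level was not tested.

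Other TRP channels were low. Trpm2, a channel opened by ADP-ribose and oxidative stress, had 5.78, 6.22 and 7.19 FPKM. Trpv3, a warmth-sensitive channel best known from skin, had 1.27, 1.15 and 1.06 FPKM and was the lowest detected member. Trpm6, the magnesium channel of the distal nephron and gut and the closest relative of Trpm7, had 0.0840, 0.103 and 0.112 FPKM from 20 reads. Trpv4, a stretch- and osmosensitive channel of endothelium, had 9 reads, Trpa1 10, Trpm4 7 and Trpv2 1 in all. Trpm1, Trpm3, Trpm5, Trpm8, Trpv1, Trpv5 and Trpv6 were listed at 0.

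In the voltage-gated family the auxiliary subunit genes Cacna2d1 and Cacnb4 alone were detected, without a detected pore. Of 10 pore genes 9 were listed at 0, beside 54.5% of all protein-coding genes. These included Cacna1c and Cacna1d of the L type and Cacna1g, Cacna1h and Cacna1i of the T type, together with Cacna1b, Cacna1e, Cacna1f and Cacna1s. Cacna1a, the P/Q-type pore known mainly from neurons, had 0.656, 0.575 and 0.586 FPKM from 43 reads. It shares 3.81% of its exon bases with the antisense gene Gm16183 (1.02 ± 0.0268 FPKM). In contrast, Cacna2d1 (chromosome 5, 15934691 to 16374511, plus strand), the alpha2delta subunit bound by gabapentin, had 17.6, 16.9 and 17.2 FPKM, and the beta subunit gene Cacnb4 had 7.99, 6.79 and 6.96 FPKM. Cacnb4 shares 16.0% of its exon bases with A430018G15Rik on the opposite strand, which had 0, 0 and 0.0876 FPKM. Cacnb2 had 1 read, and Cacna2d2, Cacna2d3, Cacna2d4, Cacnb1, Cacnb3 and the 8 gamma subunit genes Cacng1 to Cacng8 were listed at 0.

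Of the name matches that are not channels, Trpc4ap, an adaptor in ubiquitin ligase complexes, had 21.4 ± 1.08 FPKM with aliquots from 20.5 to 22.6 FPKM, and Trpc5os was listed at 0. Without the pair, 20 of 71 members (28.2%) were detected.

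Ordered by mean level, the 21 detected members formed 20 neighbouring pairs. In 13 of them the 3 aliquot values of the higher gene all lay above those of the lower gene. In the other 7 the values overlapped: Pkd2 with Atp2a2, Stim2 with Trpc4ap, Cacnb4 with Trpm2, Trpc6 with Trpc4, Trpc4 with Orai3, Orai3 with Itpr3, and Itpr2 with Trpv3. The neighbours were set by sorting on the same values, and no such share over other genes was computed. These counts therefore describe the spacing of the levels only. Of 27 pairs of related genes set out for comparison, both members were detected in 8, 1 member in 10 and neither in 9. All 8 had the same order in the 3 aliquots. Since the aliquots are splits of 1 pool, a kept order speaks only to library preparation and sequencing. No share over other gene pairs was computed. An exact sign-flip permutation over 3 values cannot give a p below 0.25, so none of the pairs was tested.

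**Figure D4:**
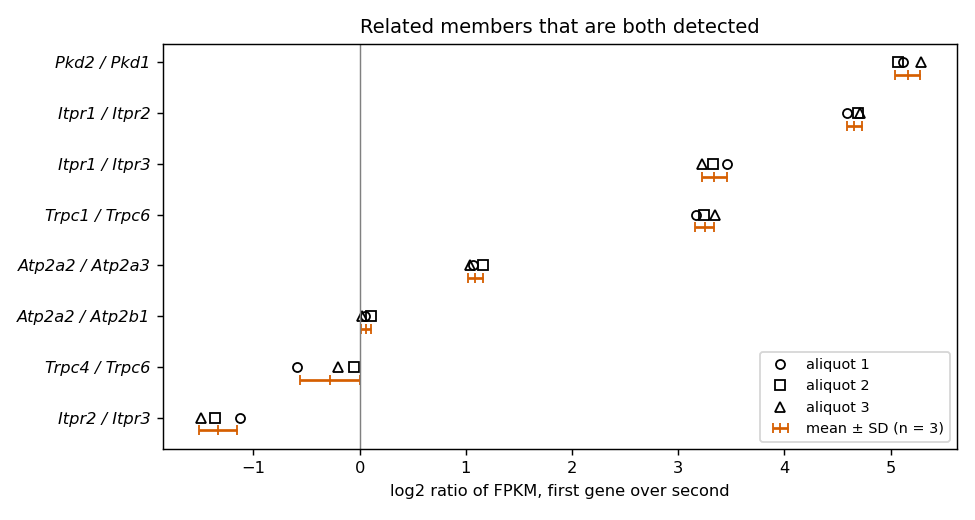
Log2 ratio of FPKM, first gene over second, for the 8 related pairs with both members detected (x axis); symbols are aliquots and the bar is the mean ± SD (n = 3). Ratios run from -1.33 for Itpr2 over Itpr3 to 5.16 for Pkd2 over Pkd1, and the bar of Trpc4 over Trpc6 reaches close to 0.

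Levels of different genes depend on the gene length behind each FPKM. The lengths recovered from the values were 1667 bases for Atp2c1, 2384 for Trpm7 and 3886 for Piezo2. For Trpm7 the smallest length that fitted was multiplied by 2 to match the mean transcript length. Its rescaled level and rank below rest on that step. The longest annotated transcripts of these genes have 5642, 7107 and 10724 bases. With each length set to the longest transcript these genes had 69.8, 62.9 and 52.0 FPKM in place of 236, 188 and 143 FPKM, and Pkd2 had 50.3 FPKM in place of 62.4 FPKM. They remained ranks 1 to 4 of the members, followed by Atp2a2 at rank 5. Itpr1, whose implied length of 9848 bases is close to the longest transcript of 9870, moved to rank 6, ahead of Atp2b1 and Trpc1. Itpr2 fell to 0.385 FPKM, below the limit. Where a recovered length is too short by a common factor, the rescaled FPKM is too low by that factor.

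**Figure D5:**
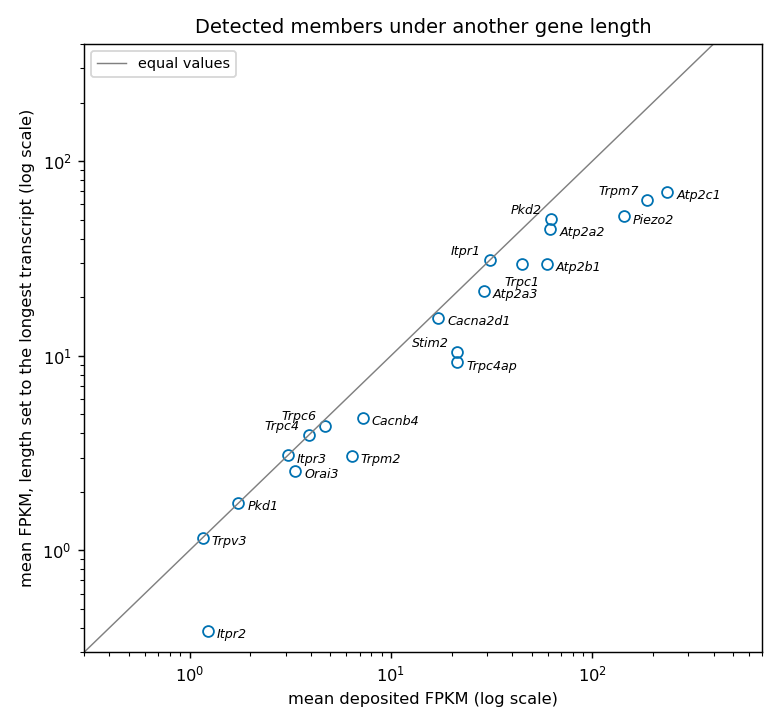
Mean deposited FPKM of the 21 detected members (x axis, log scale) against the mean FPKM with the gene length set to the longest annotated transcript (y axis, log scale); the line marks equal values. Atp2c1 (69.8 against 236 FPKM), Itpr2, Trpm7 and Piezo2 lie furthest below the line, while Itpr1, Itpr3, Pkd1, Trpc4 and Trpv3 lie close to it.

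The aliquots gave nearly the same values for the members. The coefficient of variation ran from 1.46% to 3.44% for the 3 members above 100 FPKM, from 1.25% to 5.19% for 9 members of 10 to 100 FPKM and from 4.70% to 18.7% for 9 members of 1 to 10 FPKM. The medians of these classes were 3.40%, 1.99% and 9.21%, against 2.14%, 3.88% and 8.92% for detected protein-coding genes. In a chi-square test of read numbers against library totals with Benjamini-Hochberg adjustment over 9120 genes, 0 of 24 members with at least 30 reads went beyond sampling noise, against 1.09% of all genes tested. At an unadjusted p under 0.05 there were 4 of 24 (16.7%), against 11.4% of all. These were Piezo2, whose reads were 4893, 5910 and 6255 in aliquots 1, 2 and 3, Atp2c1 (3606, 3966 and 4469 reads), Trpc4 (105, 164 and 148 reads) and Cacnb4 (397, 385 and 415 reads). Relative to the library totals, Piezo2 and Trpc4 were lowest and Cacnb4 highest in aliquot 1, and Atp2c1 was highest in aliquot 3.

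Other genes of calcium handling were read from 7 lists, with 62 of 122 measured genes detected and 49 listed at 0. Upstream of the IP3 receptors, 5 of 13 phospholipase C genes were detected, led by Plcb1, a target of Gq-coupled receptors, with 111 ± 2.78 FPKM, Plcg1, a target of receptor tyrosine kinases, with 32.9 ± 1.24 FPKM, and Plcb4 with 22.7 ± 1.23 FPKM. Of 25 regulators of stores and channels 13 were detected, and the highest were Fkbp1a, which binds release channels, with 401 ± 10.3 FPKM, Tmbim6, a membrane protein of the endoplasmic reticulum, with 285 ± 3.14 FPKM, and Ahcyl1, an inhibitor of IP3 receptors, with 114 ± 3.98 FPKM. Calcium-binding proteins of store and cytosol were detected for 11 of 17 genes, with the chaperone Canx at 2514 ± 8.34 FPKM, Hsp90b1 at 445 ± 5.06 FPKM and Calu at 372 ± 0.774 FPKM, while the muscle store buffers Casq1 and Casq2 were listed at 0.

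Downstream, 15 of 22 genes of calmodulin, its kinases and the calcineurin pathway were detected, among them the calmodulin gene Calm2 (1005 ± 4.35 FPKM) and the calcineurin catalytic gene Ppp3ca (234 ± 6.91 FPKM). Mitochondrial uptake and release genes were detected for 9 of 12, led by the outer membrane channels Vdac2 (202 ± 5.11 FPKM) and Vdac3 (155 ± 3.56 FPKM) and the uniporter subunit Smdt1 (110.3 ± 2.65 FPKM). Other entry and exchange genes were detected for 7 of 22: the ATP-gated channels P2rx4 (56.5 ± 4.32 FPKM) and P2rx1 (52.6 ± 1.02 FPKM) and the stretch-activated channel gene Tmem63b (18.8 ± 1.49 FPKM) were the highest. Of 11 lysosomal channels and other polycystins 2 were detected, Pkd1l1 (4.44 ± 0.279 FPKM) and Pkd2l2 (3.33 ± 0.298 FPKM). The share detected ranged from 18.2% in this last list to 75.0% in the mitochondrial list, beside 36.5% of all protein-coding genes.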

How the data were processed

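The authors deposited FPKM values for 39304 rows. The submitters' processing notes name the build GRCm38 and the tools TopHat2 2.0.12 and HTSeq 0.6.1; gene lengths, annotation release and strand setting are not stated in these sources. Symbols were found for 37607 of 39179 Ensembl identifiers in the reference name table. Biotypes, coordinates and transcript lengths are those of GENCODE M21 (GRCm38), and the authors may have used another release.

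Low FPKM values step in units of 1 read. Library totals were the most frequent value implied by 1 read among genes under 0.5 FPKM at the rounded mean transcript length. Each gene took the smallest whole length that gave whole reads within 0.0001, or a multiple within 1 base of the mean transcript length (374 genes, among members Trpm7). This worked for all 11142 genes above 0. A common factor may remain, which makes reads too low. FPKM set to the longest transcript would then be too low by the same factor, and ratios built on it would shift. Reads of amplified cDNA are not independent molecules, so the chi-square test and the limit of 3 reads at 0 (0.0982 reads per 1000000 over the aliquots) cover counting error only. The recovery and the test were tested on simulated data.

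Members, lists, pairs and tests were chosen with earlier results of these data known. Members with reads, the 3 highest detected genes of each other list and cell markers could be named; further genes were named after their values were seen, and a few genes are not reported here. Alternatives covered detection limits, pseudocounts, filters, gene length, read minimums, library totals and leaving out each aliquot. Python 3.11.15, pandas 2.3.3, numpy 2.4.6 and scipy 1.17.1 were used.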

Additional observations from a re-analysis of the deposited data

How the results depend on the processing

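The number of detected members was 21, and lay between 14 (at least 5 FPKM) and 24 (at least 0.5 FPKM) over all alternatives: it was 23 with a mean of at least 1 FPKM, 20 with lengths scaled to the longest transcript, 21 to 22 without 1 aliquot and 20 without Trpc4ap and Trpc5os, the last chosen after seeing the data. The median of log2(FPKM + 1) over all members was 0.00, -3.32 with a pseudocount of 0.1 FPKM, which is the value of a gene at 0 on that scale, and 2.12 over members above 0. Of related pairs 8 had 1 order in every aliquot, 8 to 9 without 1 aliquot, 11 with a limit of 0.1 FPKM and 5 with lengths scaled to the longest transcript, where Itpr2 dropped under 1 FPKM and Trpc4 over Trpc6 gave -0.49, 0.06 and -0.09. No pair ratio averaged over the aliquots changed sign under the alternatives run. With that scaling 16 of 21 member means moved by more than their SD. Members beyond sampling noise numbered 0 in the chi-square test under each alternative, with 2 to 4 at an unadjusted p under 0.05. No paired analysis was possible because the aliquots form 1 group. Depth limits members under about 30 reads, whose order cannot be read.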

Other observations

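Further genes of the calcium lists, named here after their values were seen, are given as values only. Among store regulators Saraf, which limits store-operated entry, had 65.3 ± 1.56 FPKM (SD, n = 3), the IP3 receptor-associated cGMP kinase substrate Mrvi1 had 54.2 ± 0.978 FPKM, and Pln, the inhibitor of SERCA pumps known from heart and smooth muscle, had 6.10 ± 0.113 FPKM, while its skeletal muscle counterpart Sln was listed at 0. The mitochondrial uniporter pore gene Mcu had 29.8 ± 1.71 FPKM, and of its regulators Micu3, best known from brain, had 88.6 ± 2.67 FPKM and Micu2 had 0.407 ± 0.155 FPKM. The calcineurin regulator Rcan2 had 75.0 ± 2.56 FPKM, whereas its relative Rcan1 had 1 read in all. The sodium-calcium exchanger Slc8a1 had 16.0 ± 0.575 FPKM, and Slc8a2 was listed at 0.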
